A study of Homo sapiens with 6 samples.

Results

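The genes that attach the small protein ISG15 to other proteins, and the gene that takes it off again, were followed in YCC3 gastric cancer cells given CTNNB1 siRNA or control siRNA. The 6 genes are ISG15, UBA7, UBE2L6, HERC5, HERC6 and USP18. They are grouped by their known roles in this pathway, and the group was picked with earlier results of these data known. All 6 were found among the 18417 genes measured, each on an array row annotated with that gene alone, and USP18 also on a second row shared with another symbol.

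ISG15 is a ubiquitin-like protein that cells make in response to interferon and to double-stranded RNA. It is joined to target proteins by a short enzyme chain: the activating enzyme (E1) UBA7, the conjugating enzyme (E2) UBE2L6 and a ligase (E3), which in human cells is mainly HERC5. HERC6 is the main ISG15 ligase in mouse. USP18 is the protease that cuts ISG15 off its targets, and it also binds the interferon receptor subunit IFNAR2 and dampens signalling there. Free ISG15 stabilises USP18 in human cells, and secreted ISG15 acts on leukocytes through the integrin LFA-1.

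Cells of YCC3, a human gastric cancer cell line, transfected with siRNA against CTNNB1 (3 arrays) were set against YCC3 cells given a non-targeting control siRNA (3 arrays). Both were grown in 6-well plates and harvested 48 hours after transfection, so all 6 samples had received an siRNA, and no untransfected cells were analysed here. The model is a single cell line. The sources used here give neither the siRNA sequences nor whether 1 siRNA or a pool was transfected. The sample titles call the arrays of each group biological replicates, without saying whether these were separate cultures or transfections, and the p-values measure the scatter among these arrays only. Values are log2 signals from Affymetrix Human Gene 1.0 ST arrays, on which 1 unit is a doubling of signal.

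The targeted transcript checked the labels: CTNNB1 (beta-catenin) averaged 11.07 ± 0.13 with CTNNB1 siRNA and 11.84 ± 0.05 with control siRNA (SD, n = 3 each). The difference was -0.77 ± 0.10 log2 units (SE; adjusted p = 0.00267 by limma). Array medians lay between 5.88 and 5.95. Of all 18417 genes tested 11161 had mean signals above those medians. So had all 6 measured epithelial markers, 3 of 10 leukocyte markers and 1 of 8 endothelial and fibroblast markers. Of these lists, the epithelial gene CLDN4 rose by 0.61 ± 0.10 log2 units (adjusted p = 0.00763) and the lysosomal gene CD68 by 0.95 ± 0.14 (adjusted p = 0.00547), and no other marker was called by limma. The summed linear signal of the leukocyte list ran from 5389 to 5696 with CTNNB1 siRNA and from 5791 to 6263 with control siRNA. The gene LYZ, a lysozyme gene with a change of -0.28 ± 0.09 (adjusted p = 0.113), made up most of that sum. Without LYZ the sum of the other 9 markers ran from 1103 to 1342 with CTNNB1 siRNA and from 648 to 838 with control siRNA. CD68, at a mean log2 signal of 9.93 with CTNNB1 siRNA and 8.98 with control siRNA, made up most of that sum in both groups. Of all 10 leukocyte markers 9 had positive changes, with a median of 0.11, and only CD68 was called. Among all 18417 genes tested 9425 had positive changes and 2.07% were called higher. For the endothelial and fibroblast list the summed signal ran from 294 to 308 with CTNNB1 siRNA and from 274 to 289 with control siRNA. The part of these markers in the results was not tested.

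Every gene of the ISG15 pathway rose with CTNNB1 siRNA. The 6 log2 changes ran from 1.32 for UBA7 to 2.41 for HERC5, with a median of 1.82, against a median of 0.0056 over all genes tested. All 6 passed an adjusted p of 0.05 in the fit over all genes, where 2.07% of genes were called higher. Each passed with a rise of at least 1 log2 unit, as did 0.467% of all genes. In all 6 the lowest CTNNB1 siRNA array lay above the highest control array, which held for 10.8% of all genes. In a per-gene test without moderation of the variances 3 of the 6 passed, and ISG15 (adjusted p = 0.0536), UBE2L6 (0.0602) and UBA7 (0.101) did not. By size of rise the 6 ranked from 18 to 55 among the 18417 genes. In bulk RNA a higher level per cell and a larger share of responding cells cannot be told apart.

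**Figure D1:**
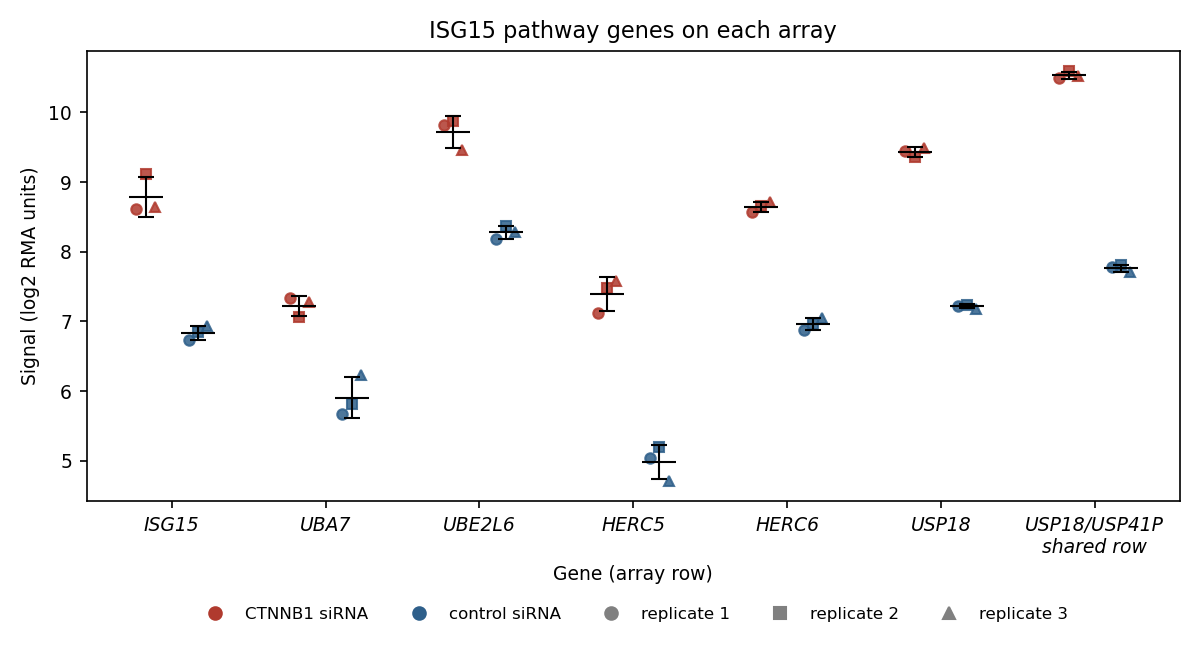
Signal (log2 RMA units) of each ISG15 pathway gene on each of the 6 arrays. Points are arrays, with the replicate number given by the marker shape, and bars are the mean ± SD of 3 arrays; the CTNNB1 siRNA arrays lie above the control siRNA arrays for every gene and for the row that USP18 shares with USP41P.

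ISG15, the modifier itself, had signals of 8.61, 9.12 and 8.64 on the CTNNB1 siRNA arrays, against 6.73, 6.85 and 6.93 on the control arrays. The second CTNNB1 siRNA replicate was the highest and the other two were close to each other, and the groups were 1.68 log2 units apart at their nearest arrays. The mean was 8.79 ± 0.28 with CTNNB1 siRNA and 6.84 ± 0.10 with control siRNA (SD, n = 3 each). The log2 change was 1.95 ± 0.14 (SE), or 3.86-fold with a 95% confidence interval of 3.11 to 4.80 (limma, adjusted p = 2.85e-05).

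UBA7, the E1 that activates ISG15, had signals of 7.34, 7.06 and 7.27 with CTNNB1 siRNA, against 5.67, 5.81 and 6.23 with control siRNA. The third control replicate was the highest of its group, and the gap between the groups was 0.83, the narrowest of the 6 genes. UBA7 averaged 7.23 ± 0.14 with CTNNB1 siRNA and 5.91 ± 0.29 with control siRNA (SD, n = 3 each). Its log2 change of 1.32 ± 0.15 (SE) is 2.50-fold, with an interval of 1.99 to 3.13 (limma, adjusted p = 0.000892). The control signal lay within the range of the array medians and was not shown to be above background, so the difference and the fold are those of array signal.

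UBE2L6, the E2 that carries ISG15 to its ligases, had signals of 9.82, 9.88 and 9.46 with CTNNB1 siRNA, against 8.19, 8.37 and 8.28 with control siRNA. The third CTNNB1 siRNA replicate was the lowest of its group and still 1.09 above the highest control. UBE2L6 averaged 9.72 ± 0.23 with CTNNB1 siRNA and 8.28 ± 0.09 with control siRNA (SD, n = 3 each), a difference of 1.44 ± 0.13 log2 units (SE). This is 2.71-fold, with an interval of 2.24 to 3.29 (limma, adjusted p = 0.000125).

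HERC5, the main human ISG15 ligase, had signals of 7.11, 7.48 and 7.58 with CTNNB1 siRNA, against 5.04, 5.19 and 4.71 with control siRNA. The groups were 1.92 apart. HERC5 averaged 7.39 ± 0.25 with CTNNB1 siRNA and 4.98 ± 0.25 with control siRNA (SD, n = 3 each). The difference in array signal was 2.41 ± 0.15 log2 units (SE; limma, adjusted p = 1.21e-05). The control signal lay below the array medians and was not shown to be above background, so this difference can understate the change in RNA, and no fold is given.

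HERC6, the paralog that conjugates ISG15 in mouse, had signals of 8.56, 8.65 and 8.72 with CTNNB1 siRNA, against 6.87, 6.97 and 7.05 with control siRNA. The arrays of each group lay close together and the groups were 1.52 apart. HERC6 averaged 8.64 ± 0.08 with CTNNB1 siRNA and 6.96 ± 0.09 with control siRNA (SD, n = 3 each), which differ by 1.68 ± 0.10 log2 units (SE). The fold was 3.21, with an interval of 2.76 to 3.73 (limma, adjusted p = 6.41e-06).

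USP18, the ISG15 protease, had signals of 9.45, 9.36 and 9.49 with CTNNB1 siRNA, against 7.23, 7.24 and 7.18 with control siRNA. Its groups were the farthest apart of the 6, by 2.12 log2 units at the nearest arrays. USP18 averaged 9.43 ± 0.07 with CTNNB1 siRNA and 7.22 ± 0.03 with control siRNA (SD, n = 3 each). The log2 change was 2.21 ± 0.09 (SE), or 4.64-fold with an interval of 4.02 to 5.35 (limma, adjusted p = 5.63e-07).

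The row annotated with both USP18 and USP41P, a copy of part of USP18, is given apart because its signal cannot be divided between them. It read 10.49, 10.59 and 10.52 with CTNNB1 siRNA, against 7.78, 7.80 and 7.71 with control siRNA. In a fit over all 33297 rows its log2 change was 2.77 ± 0.09 (SE; limma, adjusted p = 7.97e-05), where 0.538% of rows were called higher. The shared row stood above the USP18-only row by 1.04, 1.24 and 1.03 with CTNNB1 siRNA and by 0.55, 0.56 and 0.52 with control siRNA. Its change was thus 0.56 ± 0.07 (SE) larger, with a 95% interval of 0.37 to 0.74. An exact two-sided permutation test of this difference, chosen after the values were seen, gave p = 0.1, the smallest that 3 against 3 arrays allow.

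**Figure D2:**
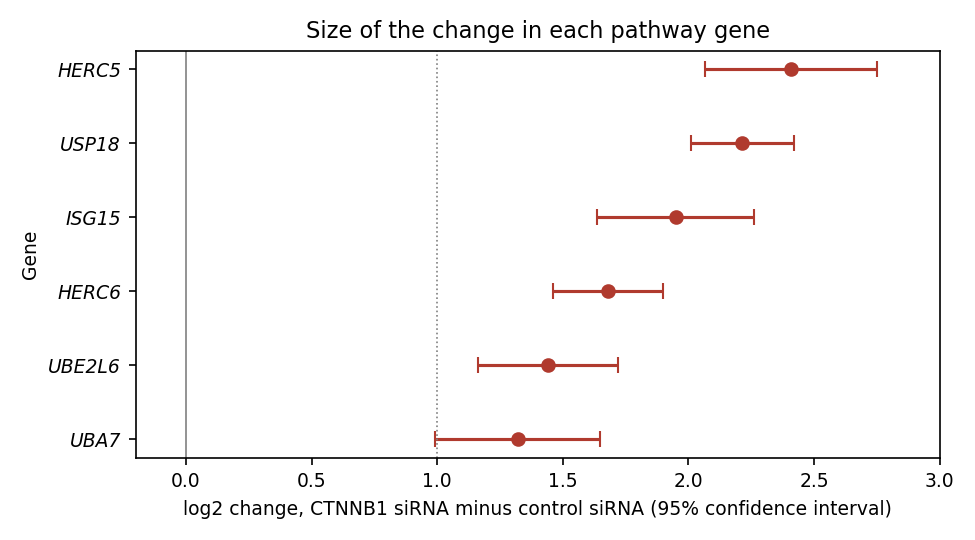
Log2 change with CTNNB1 siRNA relative to control siRNA for the 6 ISG15 pathway genes, ordered by size. Points are limma estimates and bars their 95% confidence intervals; the solid line marks no change and the dotted line 1 log2 unit. The estimates run from 1.32 for UBA7 to 2.41 for HERC5.

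In order of their changes in array signal the genes ran HERC5, USP18, ISG15, HERC6, UBE2L6 and UBA7. The places of HERC5 and UBA7 are those of signal only, because their control signals were not shown to be above background and their changes in RNA may be larger. Neighbours in the order were defined by sorting the same values. The differences between neighbouring log2 changes were 0.20 ± 0.20 (SE) for HERC5 over USP18, 0.26 ± 0.21 for USP18 over ISG15 and 0.27 ± 0.16 for ISG15 over HERC6. They were 0.24 ± 0.17 for HERC6 over UBE2L6 and 0.12 ± 0.25 for UBE2L6 over UBA7. The 95% intervals of all 5 differences included 0, and exact two-sided permutation tests gave Benjamini-Hochberg adjusted p of 0.5 to 0.7 over the 5 pairs. With 3 arrays per group no unadjusted p can fall below 0.1, a floor that ISG15 over HERC6 reached, so these tests cannot show that neighbours are alike. Between the ends of the order, HERC5 over UBA7, the difference was 1.09 ± 0.36, with an interval of 0.09 to 2.09. The neighbouring ligase genes HERC5 and HERC6 differed by 0.73 ± 0.20, with an interval of 0.16 to 1.30. Both of these pairs were picked after the order was known, which their intervals do not allow for, and are given with no test.

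The genes differed in how tightly their replicates agreed. USP18 had a within-group SD of 0.05 and HERC6 of 0.08 log2 units, which are smaller than in most genes: 4.03% and 16.5% of all genes had a smaller one. HERC5 had 0.25, UBA7 0.23, ISG15 0.21 and UBE2L6 0.17, against a median of 0.14 over all genes. No array was high or low for the whole pathway. The most one-sided was the second control replicate, where 5 of 6 genes lay above their group mean, by a median of 0.019, and in the first control replicate 4 of 6 lay below it. ISG15 was highest in the second CTNNB1 siRNA replicate, by 0.33 above its group mean, where USP18 and UBA7 were lowest of their group.

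The promoters of 2 pathway genes are shown because they carry the core of the interferon-stimulated response element (ISRE), a DNA motif of interferon-responsive promoters, and that of HERC6 because it lies beside HERC5 and moved with it. The search used GAAANNGAAA and its reverse complement, TTTCNNTTTC, overlaps allowed, in windows of 250 bases before to 50 after each start from RefSeq (GRCh38.p14). Windows were matched for 4 of the 6 genes, ISG15, UBE2L6, HERC5 and HERC6. Of all 35116 windows 3.57% held the motif, and of 27305 genes 4.38% had it in at least 1 window. Capitals mark the matches; the windows are chr1:1013247-1013546 for ISG15, chr4:88456869-88457168 for HERC5 and chr4:88378602-88378901 for HERC6, all on the plus strand.
ISG15: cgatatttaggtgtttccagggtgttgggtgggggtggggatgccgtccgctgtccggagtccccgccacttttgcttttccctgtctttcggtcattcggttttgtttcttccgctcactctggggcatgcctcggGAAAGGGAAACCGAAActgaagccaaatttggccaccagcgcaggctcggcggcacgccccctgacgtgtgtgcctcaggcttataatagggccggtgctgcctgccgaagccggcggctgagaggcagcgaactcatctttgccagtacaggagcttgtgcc
HERC5: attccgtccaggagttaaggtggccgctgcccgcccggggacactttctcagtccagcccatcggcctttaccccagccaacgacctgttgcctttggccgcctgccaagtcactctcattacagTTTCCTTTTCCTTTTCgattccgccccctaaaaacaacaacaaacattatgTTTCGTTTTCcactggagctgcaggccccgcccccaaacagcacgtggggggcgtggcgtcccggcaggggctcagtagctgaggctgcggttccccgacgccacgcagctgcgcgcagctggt
HERC6: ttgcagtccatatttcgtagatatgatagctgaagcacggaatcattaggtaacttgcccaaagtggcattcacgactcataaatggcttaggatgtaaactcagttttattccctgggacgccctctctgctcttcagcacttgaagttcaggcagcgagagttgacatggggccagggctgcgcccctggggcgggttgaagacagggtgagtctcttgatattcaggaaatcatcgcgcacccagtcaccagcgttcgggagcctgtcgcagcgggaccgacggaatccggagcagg

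In ISG15, 2 overlapping matches began 113 and 107 bases before the start. HERC5 held 3 matches in the reverse orientation, 2 of them overlapping, that began 125, 119 and 74 bases before the start. These letters were not in the HERC6 window nor in either of the 2 UBE2L6 windows. Changes in array signal were 1.68 log2 units for HERC6, 1.44 for UBE2L6, 1.95 for ISG15 and 2.41 for HERC5. For USP18 (2.21) and UBA7 (1.32) no window was matched. Whether the motif goes with the size of a change was not tested. A match is a description of the letters and not a measured binding site.

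Other genes with parts in ISG15 conjugation changed less. Of the other ISG15 ligases, TRIM25, an interferon-inducible ligase that also activates RIG-I, rose by 0.53 ± 0.10 (SE) log2 units, with 9.95 ± 0.10 with CTNNB1 siRNA and 9.43 ± 0.10 with control siRNA (SD, n = 3 each; limma, adjusted p = 0.0178). ARIH1, a ligase of the RBR class, measured -0.06 ± 0.10 (adjusted p = 0.796), a sign that turned under cyclic loess scaling (0.0092). The rise of TRIM25 did not pass without the first CTNNB1 siRNA replicate (adjusted p = 0.0746), the second control replicate (0.0594) or the third control replicate (0.0682).

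No protease reported to react with ISG15 besides USP18 was called higher. Of 5 measured, USP13 fell by 0.53 ± 0.12 log2 units (limma, adjusted p = 0.0342) and 4 did not pass. The call of USP13 was lost without any 1 of 5 arrays, with adjusted p up to 0.136. In the wider USP family, 4 of 48 measured genes fell (USP13 among them), 44 did not pass and 0 rose; the median change was -0.13. Among all genes 2.65% were called lower. USP7, a deubiquitinase that stabilises the p53 regulator MDM2, fell by 0.56 ± 0.10, USP34 by 0.56 ± 0.12 and USP24 by 0.48 ± 0.11 log2 units (adjusted p = 0.0140, 0.0301 and 0.0357). Their calls were lost without the first CTNNB1 siRNA replicate or the first control replicate, with adjusted p from 0.0691 to 0.144. USP34 and USP24 were also lost without the second CTNNB1 siRNA replicate (0.0955 and 0.109) or the third control replicate (0.0982 and 0.124).

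No relative of HERC5 and HERC6 was called higher either. HERC3, the gene next to HERC5 on the chromosome, measured 0.03 ± 0.11 log2 units (adjusted p = 0.914), a sign that turned under median centring (-0.0098). The difference between the changes in array signal of HERC5 and HERC3 was 2.38 ± 0.21, with a 95% interval of 1.81 to 2.95. HERC2, a giant ligase of the DNA damage response, fell by 0.39 ± 0.10 (limma, adjusted p = 0.0468), and that call was lost when any 1 of the 6 arrays was left out, with adjusted p up to 0.200. HERC1, named after its value was seen, measured -0.42 ± 0.10 and narrowly missed the threshold (limma, adjusted p = 0.0520). In all, 1 of 4 other HERC genes fell and 3 did not pass, where 2.65% of all genes were called lower.

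Among the lists of other E1 genes, other E2 genes and ubiquitin and ubiquitin-like modifiers 1 gene was called. None of 7 other E1 genes was called by limma, where 2.07% of all genes were called higher and 2.65% lower. Of the 7, 2 had an unadjusted p under 0.05, as had 3746 of all 18417 genes. UBA1, the main E1 of ubiquitin, measured -0.07 ± 0.10 (adjusted p = 0.752), a sign that turned under cyclic loess (0.0087). Of 23 other E2 genes, UBE2J1, which works in degradation at the endoplasmic reticulum, fell by 0.44 ± 0.10 (adjusted p = 0.0408) and 22 did not pass; its call was lost without any 1 of 5 arrays, with adjusted p up to 0.174, and also when the arrays were rescaled by quantiles (0.0574) or cyclic loess (0.0577). UBE2L3, the closest relative of UBE2L6, was not analysed here. None of 9 measured genes of ubiquitin and ubiquitin-like modifiers was called by limma, and 1 had an unadjusted p under 0.05. So had 5 of the 23 E2 genes and 2 of the 4 other HERC genes. Of the 48 USP genes 16 had one, and of the 5 ISG15-reactive proteases among them 3. Median changes were -0.07 for E1 genes, -0.06 for E2 genes and -0.02 for the modifiers. By contrast UBA7 and UBE2L6 rose by 1.32 and 1.44.

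**Figure D3:**
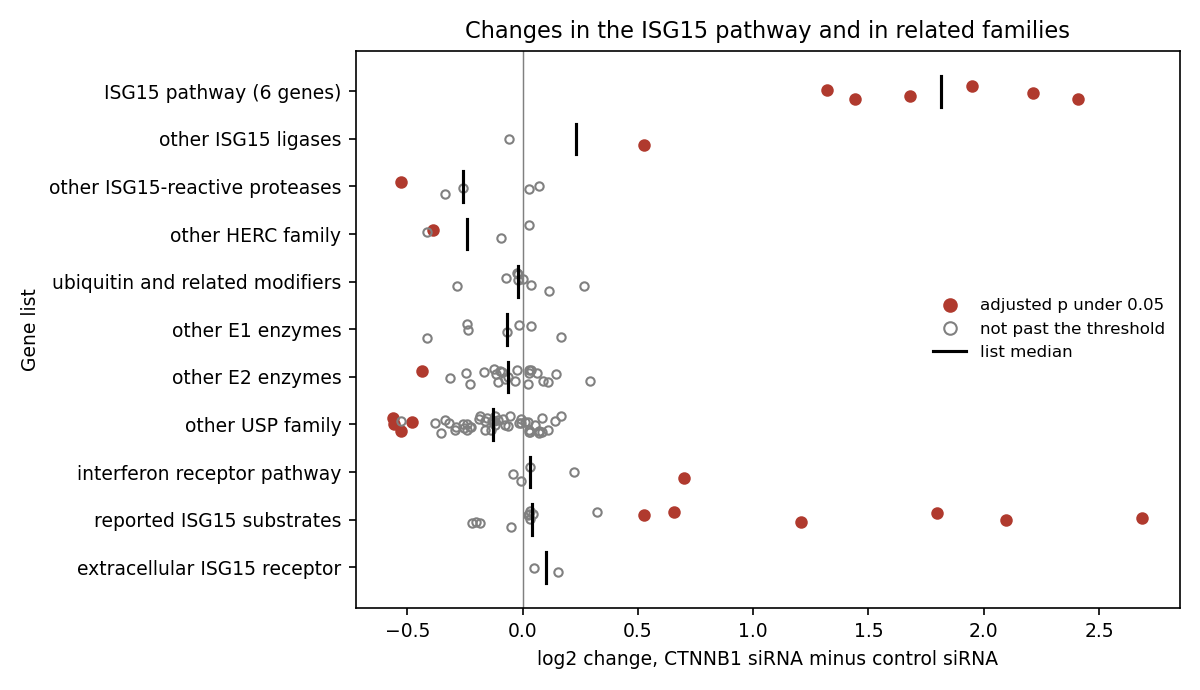
Log2 change with CTNNB1 siRNA relative to control siRNA for each measured gene of the ISG15 pathway and of related lists. Filled points passed an adjusted p of 0.05 over all genes, open points did not, and bars are list medians. The 6 ISG15 pathway genes lie at 1.32 or above, while medians of the other lists lie between -0.26 and 0.23. TRIM25, JAK1, UBE2N and the ISG15-reactive proteases each stand in 2 lists.

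Genes at the ends of the pathway were also read. USP18 acts at the type I interferon receptor. Of 5 measured genes of that receptor's pathway IRF9, a transcription factor of the interferon response, rose by 0.70 ± 0.09 log2 units (limma, adjusted p = 0.00267). The receptor subunit IFNAR2, named after its value was seen, measured 0.22 ± 0.13 (adjusted p = 0.402), and 4 of the 5 genes did not pass. STAT2, also on this list, was not analysed here. Of 16 measured genes whose proteins have been reported to carry ISG15, 6 rose, 10 did not pass and none fell; the median change was 0.04. Over all genes 2.07% were called higher and 2.65% lower. The risen ones were MX1 (2.69 ± 0.10), an antiviral GTPase; the RNA sensors IFIH1 (2.10 ± 0.11) and RIGI (1.80 ± 0.12); EIF2AK2 (1.21 ± 0.10), the kinase PKR; TRIM25; and CHMP5 (0.66 ± 0.09), an endosomal sorting protein gene named after its value was seen. Several of these are interferon-stimulated genes themselves. ITGAL, the LFA-1 subunit through which secreted ISG15 acts, was dim at 4.58 ± 0.19 with CTNNB1 siRNA and 4.43 ± 0.15 with control siRNA (SD, n = 3 each), and its change of 0.15 ± 0.12 was not called (limma, adjusted p = 0.539).

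Of the genes next to the pathway genes on the chromosome, 1 was called. The nearest measured protein-coding gene on each side of each locus was read from the order of genes in RefSeq, a comparison chosen after the main values were seen. HERC5 and HERC6 neighbour each other. Of the 10 flanking genes outside the pathway, 1 rose, 0 fell and 9 did not pass, with changes of those 9 from -0.32 to 0.30, where 2.07% of all genes were called higher and 2.65% lower. PPM1K, a mitochondrial phosphatase gene beside HERC6, rose by 0.43 ± 0.10 (limma, adjusted p = 0.0377), with dim signals of 4.88 ± 0.09 with CTNNB1 siRNA and 4.45 ± 0.08 with control siRNA (SD, n = 3 each). Its call was lost without any 1 of 5 arrays, with adjusted p up to 0.166. The call was also lost when all rows of the gene were averaged (0.39 ± 0.15, adjusted p = 0.168). With trended and robust variance the adjusted p was 0.0524. On either side of ISG15, HES4 measured 0.12 ± 0.12 and AGRN 0.30 ± 0.15 log2 units.

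**Figure D4:**
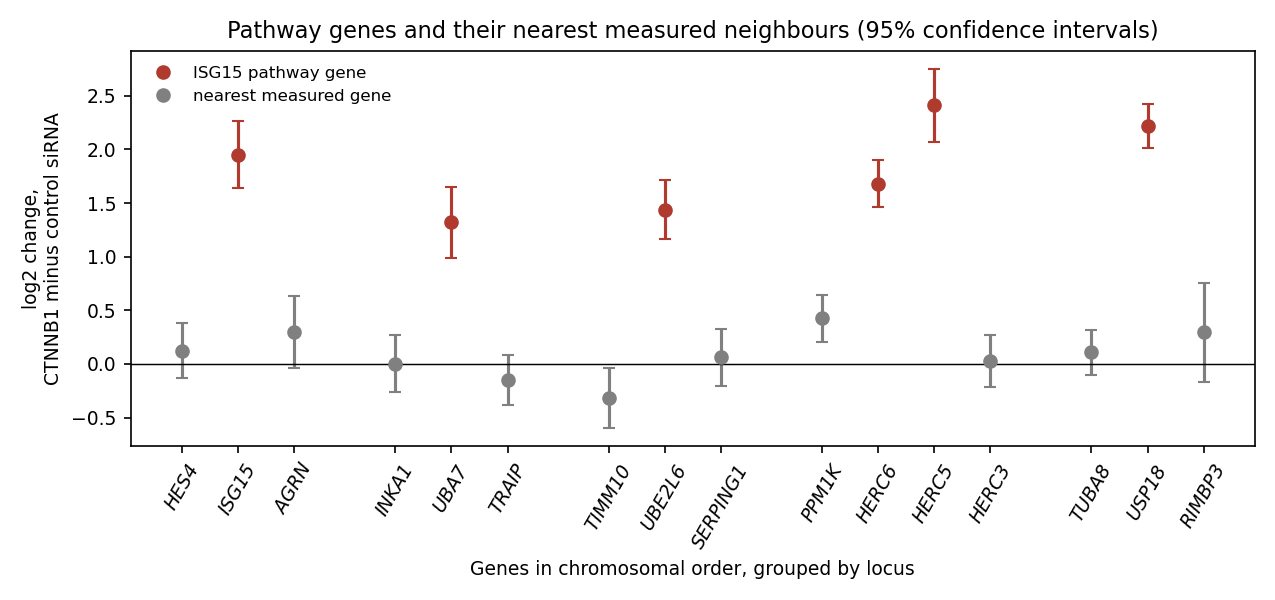
Log2 change with CTNNB1 siRNA relative to control siRNA for the ISG15 pathway genes and the nearest measured protein-coding genes on either side, in chromosomal order within each locus and not to scale. Bars are 95% confidence intervals. The pathway genes lie at 1.32 or above and the flanking genes between -0.32 and 0.43.

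The 5 other genes with the profile most like the pathway's were IFI6, IFI27, RIGI, TNFSF10 and PARP14. Likeness was the Euclidean distance over the 6 arrays between a gene's values, centred on their mean, and the mean centred profile of the 6 pathway genes. The distances ran from 0.223 for IFI6 to 0.303 for PARP14, against 0.225 for HERC6 and 0.853 for HERC5 within the pathway. The pathway genes are themselves part of that mean profile, so their distances are not like for like with the others. Log2 changes of the 5 genes lay between 1.67 and 1.87. Over 2 groups of arrays this likeness mostly reflects the size of the group difference.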

How the data were processed

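RNA of 6 samples was measured on Affymetrix Human Gene 1.0 ST arrays. The authors deposited log2 signals, which ran from 0.789 to 14.5. RMA and Affymetrix Expression Console 1.1 are named in the submitters' processing notes, and the scale was read from the values. Build and annotation version: not given in the sources used here. RMA equalises the array distributions, which hides any shift common to most genes, and background calls are unknown; the number of arrays limits precision.

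Of 33297 rows, 19460 had 1 symbol, 1754 several and 12083 none; the brightest single-symbol row over all arrays gave 18417 genes. The test was limma's (version 3.58.1, R 4.3.3; lmFit, eBayes, two-sided, Benjamini-Hochberg over all genes, threshold 0.05), after a check on simulated data. A gene rose or fell only where it passed. On the simulated data 22% of changes of 0.5 log2 units passed, 76% of changes of 1 and 96% of changes of 2. Genes that did not pass were thus not shown to be unchanged. Replicate arrays all differed: SDs of their pairwise differences lay between 0.203 and 0.262. Replicate numbers were not shown to pair the samples: same-numbered deviations correlated at -0.02, 0.33 and 0.22, and differently numbered ones from -0.29 to 0.08. The genes, lists and tests were chosen with earlier results of these data known. Named were the 6 genes, CTNNB1, up to 4 called genes per list, a few fixed relatives and the 5 most alike; others are said to be chosen later. List genes not found on single-symbol rows were not analysed here. Alternatives were a replicate block, other scalings, filters, variance models, thresholds and rows, and leaving out each array.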

Additional observations from a re-analysis of the deposited data

Results flagged for a closer look

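The row annotated with both USP18 and USP41P lies outside the gene comparison, which used rows with a single symbol, and its signal was above that of the control arrays in every CTNNB1 siRNA array. Its log2 change was 2.77 in the fit over all rows, against 2.21 for the row of USP18 alone. Leaving out any 1 array gave 2.74 to 2.79.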

How the results depend on the processing

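The log2 change of each of the 6 pathway genes stayed positive in all alternatives tried, and all 6 passed with any 1 array left out. Their number called was 6 in 17 of 19 alternatives. It was 5 after removal of the dimmest 50% of genes, which removed HERC5, and 3 without moderation, where the log2 changes of ISG15 (1.95), UBE2L6 (1.44), UBA7 (1.32) and CTNNB1 (-0.77; adjusted p = 0.0660) did not pass; with 4 residual degrees of freedom per gene such a test has less information. Over single arrays left out, log2 changes ran from 2.27 to 2.55 for HERC5, 2.19 to 2.25 for USP18, 1.79 to 2.04 for ISG15, 1.64 to 1.72 for HERC6, 1.36 to 1.57 for UBE2L6, 1.20 to 1.48 for UBA7 and -0.84 to -0.71 for CTNNB1. With the replicate block 1177 genes were called, against 870 without it, and all 6 pathway genes passed; the numbers are not shown to pair the samples.

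The number of genes called over the whole array moved more. It was 1483 and 1861 after removal of the dimmest 25% or 50%, 1622 with trended and robust variance, 111 without moderation, 252 in the fit over every row, 1668 at a threshold of 0.10, 94 with a size of at least 1 log2 unit, and 283 to 877 with 1 array left out. Calls were 43.9% rises as deposited, 33.8% under median centring and 54.4% under cyclic loess. The changes of ARIH1 (0.0092 under cyclic loess), UBA1 (0.0087 under cyclic loess) and HERC3 (-0.0098 under median centring and -0.062 without CTNNB1 siRNA replicate 3) turned sign, none of them called. The calls of TRIM25, USP13, HERC2, UBE2J1, USP7, USP34, USP24, PPM1K, CLDN4 and CD68 were lost without moderation and in the fit over every row. The causes were not tested. Signal over background is not known here, which limits HERC5 and UBA7 most, as their control signals were dim.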
